A study of Homo sapiens with 8 samples.

Results

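Long intergenic non-coding RNA (lincRNA) loci were followed on the arrays of an RND3 knockdown in U87 cells. Every non-control probe whose systematic name began with lincRNA was taken, which gave 8263 of the 42405 probes on the array (19.5%). The name gives a chromosome, a start, an end and a letter F or R, and probes with the same chromosome, start and end were taken as 1 locus, giving 5291 loci on the hg19 build. The letter was read as the strand of the probe, although the sources used here do not define it. Of these loci, 2859 had 1 probe, 2023 had 2 probes, 350 had 3 probes and 59 had 4 or more, with at most 10. Probes lay on both strands in 2114 loci, and on a single strand in 318 of the other loci with more than 1 probe. The median locus was 11289 bp long, with lengths from 70 to 1392201 bp.

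Each of the 8 arrays held total RNA from U87 cells, a human glioblastoma line, after reverse transfection of siRNA with a lipid reagent. The labels gave 3 arrays of non-silencing control cells (NSC, here siControl) and 3 of RhoE KD cells (here siRND3) at 24 h, and 1 array of each at 48 h. RhoE is another name of RND3, an atypical small GTPase, and the knockdown was studied to find the genes that respond to its loss. More than 1 siRNA was used against RND3, and the arrays are not assigned to them. Nothing states that replicates were separate transfections, so that p-values measure only the spread between these arrays, which may be technical.

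LincRNAs are transcripts, often spliced and polyadenylated, that arise between protein-coding genes and carry no long open reading frame. Many were mapped as chromatin domains or by assembling RNA reads before their ends or strand were known, and array designs of that period therefore placed probes on both strands of such regions. They are typically lower in level and more restricted to a tissue than messenger RNAs, and a few are known to act on chromatin, on splicing or on nuclear bodies.

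The signal of RND3 itself was 11.88, 11.91 and 11.90 in siControl and 10.12, 10.18 and 10.42 in siRND3 at 24 h on the normalised log2 scale. The groups did not overlap and RND3 fell by 1.66 (SE 0.10, limma adjusted p = 0.000346), and the exact two-sided permutation test gave its smallest possible p, 0.1. VIM, CD44 and NES, which glioma lines express, were well above background on all 8 arrays, whereas the astrocyte marker GFAP was so on none. Correlations of tested lincRNA probes between arrays at 24 h were 0.979 to 0.988 within a group and 0.974 to 0.981 between groups. All 8 arrays shared 1 slide, with the siRND3 arrays in its first row and the siControl arrays in its second, so that row and treatment cannot be told apart.

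Detection of the lincRNA loci was incomplete. Per array, 63.0% to 65.9% of lincRNA probes were well above background by the scanner software's mark, against 69.5% to 71.9% of other probes. Over all 8 arrays, 4656 lincRNA probes (56.3%) were above background throughout and 2173 (26.3%) on none, compared with 65.0% and 22.2% of other probes. At the level of the locus, 3437 loci (65.0%) had at least 1 probe detected on all 8 arrays, 2558 had every probe so detected, and 993 had no probe detected on any array. Where a locus had probes on both strands, 883 loci were detected on both, 440 by an F probe only, 392 by an R probe only and 399 by neither. Placed in 3 equal groups by length, single-probe loci of the longest group, from 20087 bp, had signal over background on each array in 51.1% of cases, those of the middle group in 58.2%, and those of the shortest, up to 6476 bp, in 57.4%.

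The loci with the most probes, 10 each, were mostly below background on these arrays. At chr21:21322604-21759979, chr5:86405094-86425344 and chr6:73130154-73135679 none of the probes passed the filter for the test at 24 h. The brightest loci in siControl cells lay at the opposite end of the range. Probe A_19_P00809968 at chr18:5232477-5246926 read 17.31, 17.40 and 17.31 in siControl and 17.35, 17.19 and 17.38 in siRND3. The groups overlapped, with a difference of -0.04 (SE 0.08, adjusted p = 0.823). For A_19_P00319432 at chr7:32957031-32982645 the difference was 0.02 (adjusted p = 0.927), and for A_19_P00320123 at chr20:31136358-31172876 it was 0.01 (adjusted p = 0.960).

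A probe was tested at 24 h when the 3 siControl arrays, the 3 siRND3 arrays or both sets all showed it well above background, which 5150 lincRNA probes in 3731 loci met. A total of 317 passed an adjusted p of 0.05, which was 6.16% of tested lincRNA probes, against 11.6% of all 28762 tested probes and 12.8% of the other probes. In siRND3, 197 were higher (3.83%, against 5.27% of all tested probes) and 120 were lower (2.33%, against 6.38%). The count was 104, 147 or 153 when 1 siControl array was left out, lowest without replicate 3, and 171 and 210 without siRND3 replicates 2 and 3. With a replicate block it was 175. Without adjustment, 1040 lincRNA probes had p under 0.05 (20.2%, against 28.0%). The groups did not overlap for 22.7% of lincRNA probes and 34.3% of all probes. Median differences were small in either set, 0.09 for lincRNA probes and 0.05 for all tested probes.

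**Figure D1:**
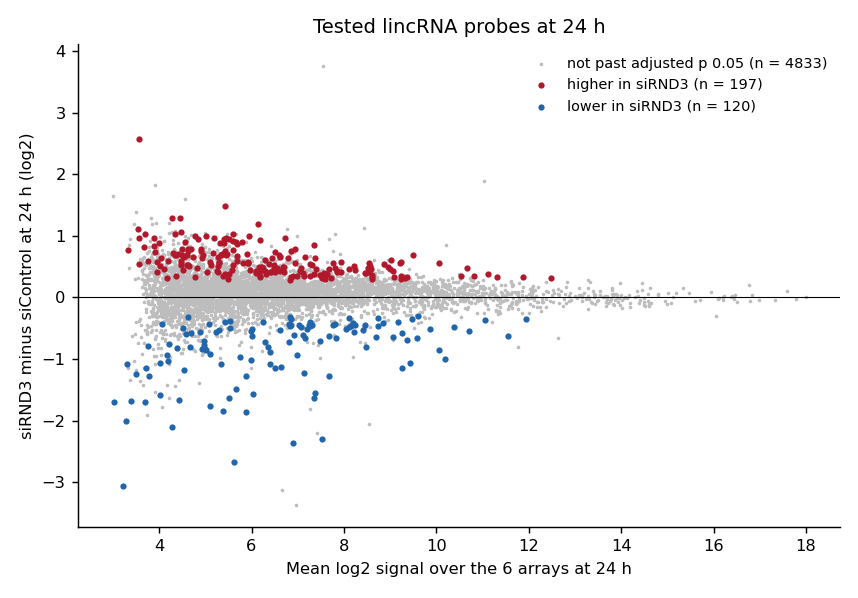
Difference between siRND3 and siControl at 24 h (log2) against the mean log2 signal of the 6 arrays, 1 point per tested lincRNA probe. The 197 higher probes (red) stay mostly under a difference of 1, while 37 of the 120 lower probes (blue) fell by more than 1.

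The direction of the calls differed in number and in size. Higher calls made up 62.1% of the changed lincRNA probes and 43.5% of the changed other probes. The median change was 0.54 among the higher lincRNA probes and -0.65 among the lower ones. Only 11 of the higher probes rose by more than 1, compared with 37 of the lower probes that fell by more than 1. The share of rises moved when single arrays were left out. Without siRND3 replicate 2, 77 of 171 calls were higher (45.0%), and without siControl replicate 3 there were 51 of 104 (49.0%).

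Call rates were also set side by side at matched signal. All tested probes were placed in 5 equal groups by mean signal. LincRNA probes were called in 6.34%, 6.26%, 6.46%, 6.67% and 3.10% from the dimmest to the brightest group. Other probes were called in 8.89%, 10.8%, 14.4%, 18.0% and 11.2% of the same groups. The lincRNA share was below the share of other probes in each group, with the widest gap next to the brightest. The typical SD among replicate arrays was larger for lincRNA probes in each group, so probes of like signal differed in spread. From the dimmest group it was 0.28, 0.18, 0.14, 0.14 and 0.13, against 0.27, 0.17, 0.12, 0.10 and 0.08 for other probes. Each lincRNA probe had a single spot, whereas the 42405 probes of the array shared 58717 non-control spots. Spots of a probe were averaged, so some other probes were means of several spots. This applies to every comparison with other probes here. The part of brightness, of spread or of averaging in the difference in call rates was not tested.

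**Figure D2:**
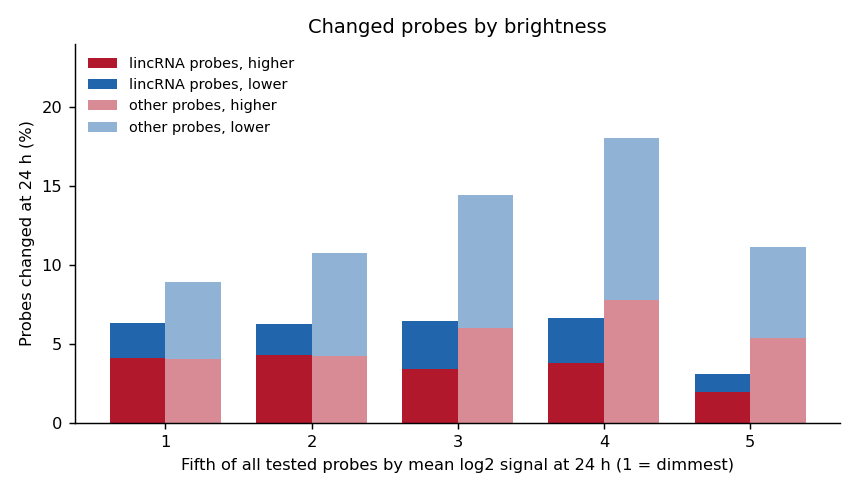
Percentage of tested probes changed at 24 h (adjusted p under 0.05) by 5 equal groups of mean log2 signal, for lincRNA probes (full colour) and other probes (pale), split into higher (red) and lower (blue). LincRNA bars stay between 3.10% and 6.67%, whereas bars of other probes reach 18.0% in the group next to the brightest.

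Counted by locus, 303 of 3731 tested loci changed (8.12%), 191 higher and 112 lower, and 1 further locus had probes changed in both directions. Genes of other probes, counted the same way, changed in 2431 of 14803 cases (16.4%). Loci often overlap each other, and merging them gave 2441 separate regions, of which 1974 had a tested probe and 241 a changed locus. Testing the mean of the probes of a locus in place of single probes called 253 loci. By chromosome the share of lincRNA probes called ran from 2.80% on chromosome 13 to 11.5% on chromosome 22. The latter was 12 of 104 probes, and 6 of the 12 lay in 1 region of overlapping loci. In 3 equal groups of tested loci by length, changed loci were 8.28% of the shortest, 9.01% of the middle and 7.07% of the longest.

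Agreement between probes of a locus was rare at the level of calls. Of 1218 loci with at least 2 tested probes, 11 had at least 2 probes changed the same way (0.903%), 4 higher and 7 lower. For genes of other probes this was 249 of 3555 (7.00%). In 10 of the 11 loci the changed probes shared a strand. All 23 changed probes of these loci had differences of the same sign at 48 h, between the single arrays, although 2 of them, at chr6:147163036-147237021, were not well above background in siRND3 then.

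Among these 11 loci the largest change was at chr4:128758375-128769050, a locus with F probes A_19_P00326917 and A_19_P00331034. Signal of the first was 8.61, 8.72 and 8.68 in siControl and 6.25, 6.26 and 6.59 in siRND3. The other F probe read 8.02, 8.12 and 8.11 in siControl and 5.63, 5.60 and 5.92 in siRND3. In both, every siRND3 array lay more than 2 log2 units below every siControl array, and the differences were -2.30 (SE 0.11, adjusted p = 0.000204) and -2.37 (SE 0.11, adjusted p = 0.000157). At 48 h the differences were -3.97 and -3.78. The R probe of the locus was above background on 4 of the 8 arrays and was not tested.

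Second in size was chr18:48607527-48612752. Its F probe A_19_P00804817 read 9.99, 9.94 and 9.98 in siControl and 9.06, 8.78 and 8.88 in siRND3, a difference of -1.07 (SE 0.09, adjusted p = 0.00119). The F probe A_19_P00812250 read 10.66, 10.69 and 10.70 in siControl and 9.77, 9.66 and 9.61 in siRND3, a difference of -1.0 (SE 0.07, adjusted p = 0.000754). Neither pair of groups overlapped, and the R probe was above background on no array. By 48 h the differences were -2.12 and -2.02.

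On chromosome 6, the R probes of chr6:147163036-147237021 fell together. A_19_P00322407 read 5.12, 5.67 and 5.51 in siControl against 4.69, 4.46 and 4.59 in siRND3, and A_19_P00322409 read 5.38, 5.33 and 5.33 against 4.37, 4.46 and 4.67. The groups did not overlap, with differences of -0.86 (adjusted p = 0.0174) and -0.84 (adjusted p = 0.00370). At the overlapping locus chr6:147227807-147238032, 1 of 2 tested probes was called higher, with a mean difference of 0.33. The other tested loci that overlap it had no changed probe, with differences of -0.23, -0.13, -0.26 and 0.07. Also on this chromosome, the R probes of chr6:34244122-34253847 fell by unequal amounts. A_19_P00802759 fell by 0.45 (SE 0.10, adjusted p = 0.0324) and A_19_P00806911 fell by 1.15 (SE 0.10, adjusted p = 0.00144), from 7.14, 6.89 and 7.20 to 5.85, 5.95 and 5.98. For chr2:102038185-102091164 the R probes A_19_P00319027 and A_19_P00319028 each fell by 0.45 at 24 h (adjusted p = 0.0216 and 0.0255). At 48 h their differences were -1.82 and -2.32, larger than at 24 h in the model with both times (adjusted p = 0.0245 and 0.0165).

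A pair of overlapping loci on chromosome 22 made up the rest of the falls. At chr22:31365634-31376450 the F probes A_19_P00807057 and A_19_P00811561 changed by -0.62 (SE 0.14, adjusted p = 0.0403) and -0.89 (SE 0.12, adjusted p = 0.00715). At chr22:31371385-31374065, which lies inside it, the F probes A_19_P00320119 and A_19_P00320120 changed by -0.65 (SE 0.09, adjusted p = 0.00825) and -0.62 (SE 0.08, adjusted p = 0.00696). The last of these read 7.97, 8.01 and 7.96 in siControl and 7.39, 7.22 and 7.46 in siRND3. All 4 probes had separate groups, and their differences at 48 h were between -0.76 and -1.42.

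Among loci that rose with more than 1 probe, chr1:227844577-227852377 moved the most. Its F probe A_19_P00803342 read 5.64, 5.47 and 5.56 in siControl and 6.75, 6.45 and 7.03 in siRND3, a rise of 1.19 (SE 0.15, adjusted p = 0.00522). The F probe A_19_P00808213 read 4.65, 4.19 and 5.23 in siControl and 6.09, 6.0 and 6.42 in siRND3, a rise of 1.48 (SE 0.26, adjusted p = 0.0174). The groups did not overlap in either probe, although siControl spread over 1 log2 unit in the second. The R probe was above background on no array.

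At chr11:65265824-65275174 all 3 probes rose, and this was the locus among the 11 with changed probes on both strands. The F probes A_19_P00805006 and A_19_P00809614 rose by 0.56 (SE 0.12, adjusted p = 0.0299) and 0.60 (SE 0.12, adjusted p = 0.0279). In siControl A_19_P00805006 read 9.88, 9.81 and 9.62, and in siRND3 10.46, 10.14 and 10.38. The R probe A_19_P00802786 rose by 0.71 (SE 0.14, adjusted p = 0.0228), from 4.06, 4.32 and 3.79 to 4.82, 4.72 and 4.77. Differences at 48 h were 0.87 and 1.06 for the F probes and 0.25 for the R probe. The tested loci that overlap this one mostly did not pass. At chr11:65266349-65275177, 1 of 3 tested probes was higher, with a mean difference of 0.13. The others had no changed probe, with differences of -0.69, -0.06, 0.25 and 0.19.

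The remaining rises were small against a narrow spread. At chr5:43016161-43018426 the R probes A_19_P00318599 and A_19_P00318600 rose by 0.35 (SE 0.07, adjusted p = 0.0256) and 0.34 (SE 0.07, adjusted p = 0.0258). A_19_P00318600 read 9.18, 9.20 and 9.18 in siControl and 9.48, 9.54 and 9.56 in siRND3. At 48 h the differences were 1.15 and 1.58, larger than at 24 h (adjusted p = 0.0415 and 0.0196). At chr7:7928975-7996750 the R probes A_19_P00802201 and A_19_P00810205 rose by 0.33 (SE 0.07, adjusted p = 0.0309) and 0.34 (SE 0.07, adjusted p = 0.0253), and their differences at 48 h were 0.07 and 0.10.

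**Figure D3:**
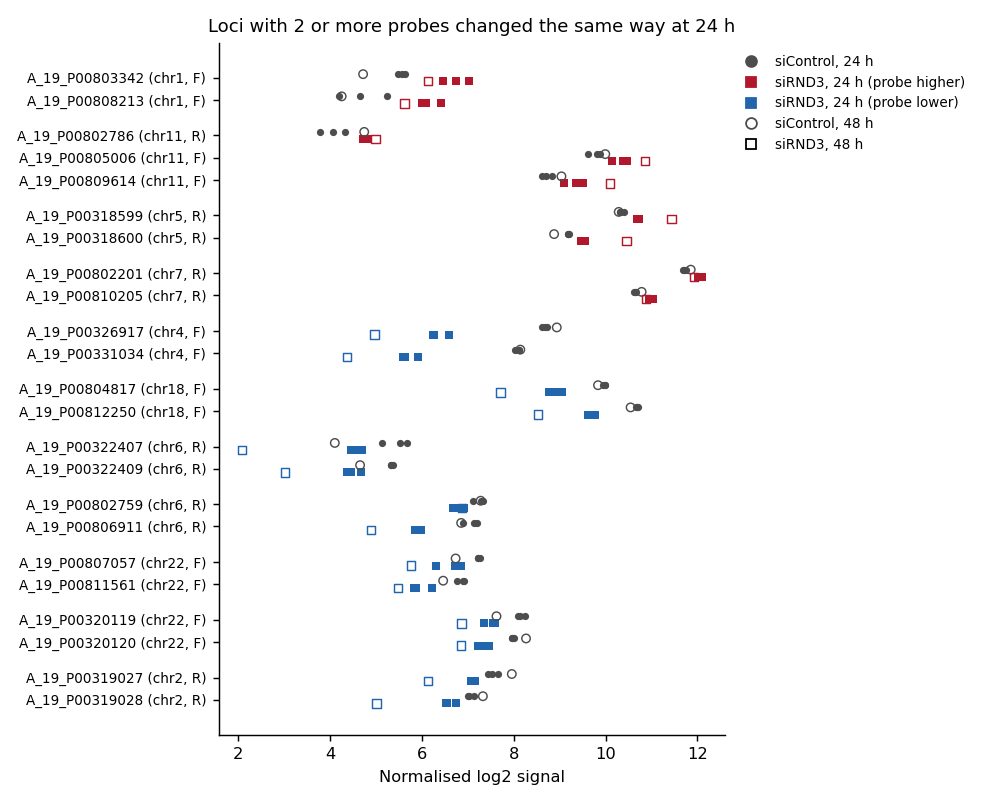
Normalised log2 signal on each array for the 23 changed probes of the 11 loci with 2 or more probes changed the same way, labelled by probe, chromosome and strand letter. Filled points are the 3 siControl (grey circles) and 3 siRND3 (squares, red where higher and blue where lower) arrays at 24 h, which do not overlap in any row, and open symbols are the single arrays at 48 h.

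These calls were not equally stable. The loci chr4:128758375-128769050, chr18:48607527-48612752 and chr22:31371385-31374065 kept at least 2 changed probes in each of the 11 alternative settings and each time 1 of the 6 arrays was left out. The loci at chr2:102038185-102091164, chr5:43016161-43018426 and chr7:7928975-7996750 lost this status whichever array was left out.

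Loci measured by a single tested probe gave larger falls than rises. The R probe A_19_P00320171 at chr2:179378839-179379203, a locus of 365 bp, read 7.15, 6.72 and 7.00 in siControl and 4.19, 4.61 and 4.06 in siRND3. This difference of -2.67 (SE 0.17, adjusted p = 0.000502), a 6.37-fold difference, was the largest among changed loci with 1 tested probe detected on each of the 6 arrays at 24 h, and the difference at 48 h was -3.53. On chromosome 6 a long and a short locus overlapped, and each had a tested F probe. A_19_P00800282 at chr6:5013951-5056876 read 6.70, 6.76 and 6.93 against 5.25, 4.53 and 5.05, a difference of -1.85 (SE 0.19, adjusted p = 0.00227). A_19_P00805563 at chr6:5047814-5048418 read 6.26, 6.33 and 6.30 against 4.49, 4.13 and 4.75, a difference of -1.84 (SE 0.16, adjusted p = 0.00114). The groups were far apart in both. At 48 h the difference was -2.09 for the first, and the second was at least 10.9-fold lower in siRND3, where it was not well above background. Such a bound sets the brighter array against the lowest signal well above background on the dimmer one. The R probe A_19_P00317999 at chr2:178182443-178183091 fell by 1.56 (SE 0.16, adjusted p = 0.00266), and at 48 h it was at least 6.22-fold lower in siRND3, not well above background there.

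Rises of such loci were near 1 on the log2 scale. The F probe A_19_P00317005 at chr22:28691918-28692782 rose by 1.06 (SE 0.18, adjusted p = 0.0163), from 3.94, 4.22 and 3.67 to 5.30, 4.89 and 4.81. The R probe A_19_P00804679 at chr20:1335325-1349500 rose by 1.0 (SE 0.13, adjusted p = 0.00575), from 4.40, 4.05 and 4.36 to 5.45, 5.14 and 5.21. The R probe A_19_P00802393 at chr6:29701971-29740296 rose by 0.96 (SE 0.23, adjusted p = 0.0437). In these 3 the siControl array was the higher at 48 h, with differences of -0.31, -0.47 and -0.43. The R probe A_19_P00327974 at chr12:66166633-66206633 rose by 0.96 (SE 0.21, adjusted p = 0.0346) and was at least 2.04-fold higher at 48 h, where siControl was not well above background.

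A single locus had probes changed in opposite directions, chr11:34718449-34894824. Its F probe A_19_P00802758 read 4.90, 5.04 and 4.69 in siControl and 4.24, 4.14 and 4.46 in siRND3, a difference of -0.60 (SE 0.13, adjusted p = 0.0299). The R probe A_19_P00805392 read 5.39, 5.07 and 4.77 in siControl and 5.92, 6.36 and 6.05 in siRND3, a rise of 1.03 (SE 0.18, adjusted p = 0.0178). Neither probe's groups overlapped, and the strands of the locus moved apart at 24 h. At 48 h the differences were -1.06 for the F probe and -0.37 for the R probe.

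The strand of the probes went with how far they agreed. In loci with exactly 2 tested probes, 158 pairs lay on the same strand and 868 on opposite strands. The differences had the same sign in 79.1% of same-strand pairs and 59.2% of opposite-strand pairs. The median gap between the differences of a pair was 0.13 and 0.22 on the log2 scale, and the correlation across loci was 0.67 and 0.03, where all points share the same 6 arrays. Pairs of probes of 1 gene elsewhere on the array had the same sign in 73.3% of 2986 cases, with a correlation of 0.58. When both probes were brighter than the median tested lincRNA probe, at 6.24, the same-sign share was 82.7% in 81 same-strand pairs and 65.5% in 229 opposite-strand pairs, and the correlations were 0.84 and 0.08. Both probes changed the same way in 10 of the 29 same-strand pairs with a changed probe and in 0 of the 68 opposite-strand pairs.

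**Figure D4:**
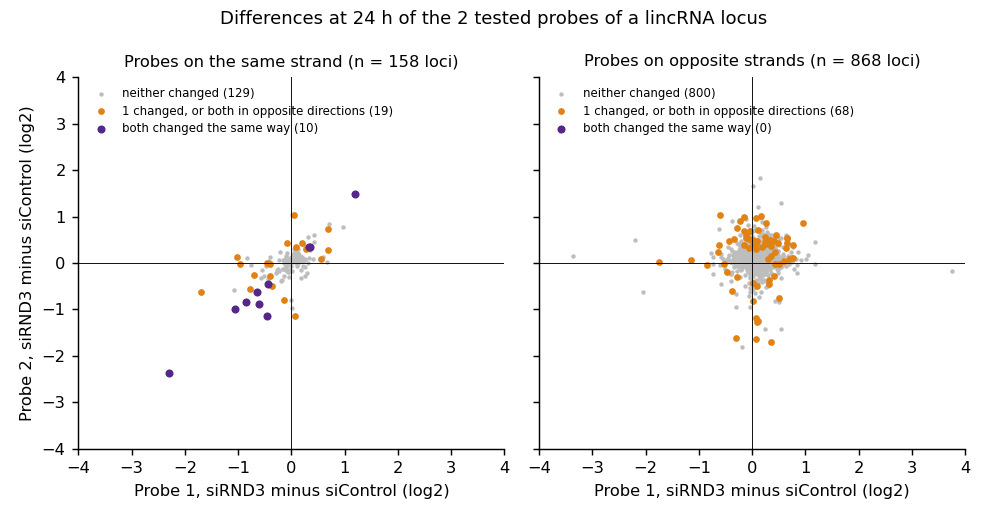
Difference between siRND3 and siControl at 24 h (log2) of probe 1 against probe 2 for lincRNA loci with exactly 2 tested probes, on the same strand (left, 158 loci) or on opposite strands (right, 868 loci). Purple points mark pairs in which both probes changed the same way, 10 on the left and 0 on the right, and orange points mark other pairs with a changed probe.

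Seen from the changed loci, 114 had exactly 1 changed probe among 2 or more tested. Their 145 other probes had the sign of the changed probe in 97 cases and the opposite sign in 48. On the strand of the changed probe this was 38 of 44, with a median difference of 0.20 in its direction. On the other strand it was 59 of 101, with a median of 0.07. Over all 1218 loci with at least 2 tested probes, the differences were of 1 sign in 718 loci (58.9%), 583 positive and 135 negative, against 69.6% of 3555 genes.

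Overlapping loci gave a further view, because separate probes then lie in 1 region. Among the merged regions 10 held 3 or more changed loci, and 36 held at least 2, of which 27 had changed loci of 1 direction. The regions described next were singled out after their values were seen, as those with at least 4 changed loci and a single direction. Whether the probes of different loci in a region share sequence is not known here.

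On the X chromosome, 11 loci within chrX:73164163-73219592 each had an F probe that rose. These were 11 of the 17 tested probes of the merged region, chrX:73164161-73291277. The rises ran from 0.41 to 0.68. The largest, at A_19_P00317824, went from 9.08, 9.30 and 9.07 in siControl to 9.90, 9.81 and 9.80 in siRND3 (SE 0.09, adjusted p = 0.00628). None of the 11 probes had overlapping groups, and all were higher at 48 h, by 0.90 to 1.55. Of the other 4 F probes tested, 1 had a positive difference. These 11 probes were most of the 17 higher lincRNA probes on the X chromosome, where 1 was lower.

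Falls of the same kind were seen on the F strand of chromosome 9, within chr9:132236854-132275963. Of 23 tested F probes 6 fell, with differences of -1.76 to -0.40, and 21 had negative differences, while none of the 9 R probes passed. A_19_P00321089 read 7.15, 7.30 and 7.06 in siControl and 6.54, 6.45 and 6.35 in siRND3, a difference of -0.73 (SE 0.10, adjusted p = 0.00617). A_19_P00320602 fell by 0.69 (SE 0.10, adjusted p = 0.00790). All 6 were lower at 48 h, with differences of -0.91 to -0.07.

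Within chr3:184997356-185047051, 5 of 7 tested F probes fell, with differences of -0.63 to -0.41. None of 4 R probes passed, although all 4 had negative differences at 24 h, from -1.64 to -0.02 with a median of -1.46. The brightest of the 5 F probes, A_19_P00321136, read 11.92, 11.86 and 11.80 in siControl and 11.21, 11.17 and 11.31 in siRND3 (SE 0.08, adjusted p = 0.00460). The differences of the 5 at 48 h were -0.93 to -0.69. In the region of chromosome 22 that holds both loci described above, all 10 tested F probes had negative differences and 6 fell, with values of -0.89 to -0.47. Its 3 tested R probes also had negative differences at 24 h, of -0.52 to -0.06, and none passed. Within chr6:30255819-30293571, 4 of 15 tested R probes fell, with differences of -0.47 to -0.42 at 24 h and -0.60 to -0.20 at 48 h. With the replicate number as a block the changed probes numbered 6 in the X region, 3 on chromosome 9, 2 on chromosome 3 and 0 on chromosome 6. Without siControl replicate 1 or 3 they numbered 5 in the X region and 2 on chromosome 3, and without siControl replicate 3 there were 0 on chromosome 6.

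Between probes of overlapping but different loci, differences had the same sign in 64.0% of 4277 same-strand pairs and in 57.9% of 3458 opposite-strand pairs. Both probes of a pair changed the same way 118 times on the same strand and 5 times on opposite strands. Without the 10 regions with 3 or more changed loci these counts were 15 and 3. A probe enters many such pairs, and the counts are a description.

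At 48 h there was 1 array per treatment and no test of the difference itself. Of the 317 lincRNA probes changed at 24 h, 229 (72.2%, exact binomial 95% interval 67.0% to 77.1%, counting error only) had the same sign at 48 h. The share was 62.9% of the 197 higher probes and 87.5% of the 120 lower probes. Among tested lincRNA probes not changed at 24 h it was 54.4%, and among changed other probes 95.0%. Differences over 1 in size were seen for 93 lincRNA probes upwards and 128 downwards at 48 h, which is 4.29% of those tested, against 9.54% of all probes. The median difference at 48 h was 0.17 over the higher probes and -0.90 over the lower probes.

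**Figure D5:**
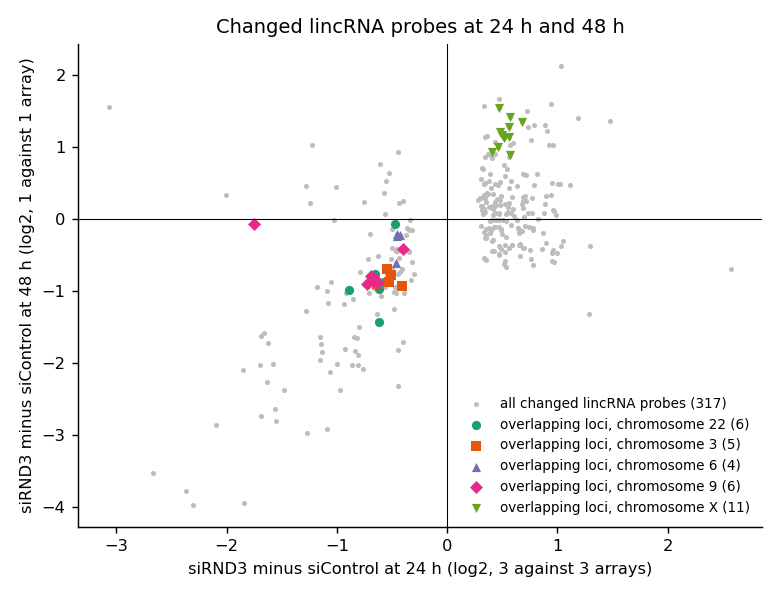
Difference between siRND3 and siControl at 48 h (1 array each) against 24 h (3 arrays each), on the log2 scale, for the 317 lincRNA probes changed at 24 h. Coloured symbols mark changed probes in 5 regions of overlapping loci, with the 11 probes of the X region all above 0 at both times.

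The knockdown effect differed between 48 h and 24 h for 61 lincRNA probes in 57 loci, 21 upwards and 40 downwards, in the limma model of all 8 arrays. This was 1.18% of tested lincRNA probes, against 2.72% of all probes. In 32 the difference was larger at 48 h in the same direction, and in 29 its sign was opposite. Each treatment had 1 array at 48 h, whose spread was taken from the arrays at 24 h, and the count fell to 0 without siControl replicate 1 or 3, to 1 without siControl replicate 2 and to between 12 and 23 without an siRND3 array.

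Some of these probes had little or no change at 24 h. The F probe A_19_P00326595 at chr1:94194737-94252887 was between 3.61 and 4.29 on the 6 arrays at 24 h, 3.87 in siControl at 48 h and 6.26 in siRND3 at 48 h (adjusted p of the difference between times = 0.0233). The R probe of the locus read 8.94 and 8.93 at 48 h. In the other direction, the F probe A_19_P00813557 at chr1:118374652-118400852 was between 5.12 and 5.83 at 24 h, then 5.17 in siControl and 2.29 in siRND3 at 48 h, where it was not well above background (adjusted p = 0.0191). Against the dimmest signal above background it was at least 6.19-fold lower. The F probe A_19_P00802100 at chr6:22147357-22194410 differed between the times (adjusted p = 0.0415) and was at least 3.69-fold higher in siRND3 at 48 h, with siControl below background. The F probe A_19_P00807675 at chr13:42615850-42621075 also passed (adjusted p = 0.0301), but neither 48 h array had it well above background and no size is given. Of the 61 probes, 10 were not well above background on at least 1 array at 48 h.

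In siControl cells, 97 lincRNA probes in 93 loci changed between 24 h and 48 h, 33 higher and 64 lower at 48 h. This was 1.88% of tested lincRNA probes, against 3.56% of all probes, and the count was 2 to 9 when 1 siControl array was left out. The F probe A_19_P00317005 at chr22:28691918-28692782, described above as higher in siRND3 at 24 h, rose by 1.50 with time in siControl (adjusted p = 0.0351), to 5.45. The R probe A_19_P00327787 at chr21:17256004-17265311 rose by 1.42 (adjusted p = 0.0406). Its F partner A_19_P00331401 had a difference of -0.30 (adjusted p = 0.523). The R probes A_19_P00800104 at chr1:163117124-163291484 and A_19_P00804825 at chr3:112308735-112319860 were below background in siControl at 48 h, at least 3.12-fold and at least 3.30-fold lower. These bounds were not tested. Their F partners had differences of -0.10 and 0.23 (adjusted p = 0.701 and 0.546).

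The locus chr22:27066108-27066654 had R probes that did not agree. A_19_P00320293 read 4.59, 5.14 and 4.54 in siControl at 24 h and 1.26, 1.46 and 2.35 in siRND3, where no array had it above background. With the highest floor of the 8 arrays, 2.54 on the log2 scale, set on each siRND3 array, the level was at least 4.64-fold lower. The probe entered the test through the siControl arrays only. Its limma adjusted p, 0.00223, belongs to a fitted difference that rests on siRND3 readings below background, and does not test this bound. Each array's own floor gives 6.66-fold, because the floor of siRND3 replicate 1 was 1.15. At 48 h it was below background on both arrays, so no difference is given. The other R probe, A_19_P00320294, read 1.52, 1.38 and 2.92 in siControl and 7.14, 6.40 and 2.15 in siRND3, above background only on siRND3 replicates 1 and 2, and was not tested. Opposite readings thus came from probes on the same strand of a locus of 547 bp.

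Some large differences did not pass. Of 95 tested lincRNA probes with a difference over 1 in size, 47 were not called, and in 27 of these the SD of at least 1 group was over 1. Such values were spread over arrays, as each of the 6 arrays at 24 h had between 8 and 14 lincRNA probes more than 2 log2 units from the mean of its group mates.

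A separate list of 65 symbols of long non-coding RNA genes, such as snoRNA host genes and antisense transcripts, was read from the other probes for comparison. Of the 48 present on the array, 35 were tested, 0 were higher and 1 was lower, against 16.4% of tested genes of other probes changed, with a median difference of -0.06 over 40 probes against 0.05 over all tested probes. The lower gene was OIP5-AS1, an antisense transcript that is known to bind RNA-binding proteins, which fell by 1.11 (adjusted p = 0.000536).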

How the data were processed

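The authors labelled total RNA with Cy3 by a low-input amplification kit and hybridised 1 sample per array, and per the file headers the scans were read with Feature Extraction 10.7.3.1. The deposited array files hold linear intensity values, background-corrected and detrended within each array but not scaled between arrays. The authors also deposited a quantile-normalised log2 table, whose columns rank the probes as the spot medians do and which served as an alternative.

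Here the processed signals of non-control spots were taken to log2 and quantile-normalised over the 8 arrays. Spots marked as outliers were then left out, and the spots of a probe were averaged. A further 15 probes named by an older build were not used. A probe was called well above background where at least 50 percent of its spots were marked so by the scanner software. Of 42405 probes, 28762 were tested at 24 h with limma 3.58.1 in R 4.3.3, and p-values were adjusted by Benjamini-Hochberg over all of them, with a threshold of 0.05. The change with time was fitted in a model of 4 groups. The probe fit was run on simulated arrays with independent noise. These cannot test effects of slide row or of single arrays, nor the rules for loci. Arrays give no read depth, and the number of arrays limits the precision.

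Loci were named as the largest rises and falls among those with 2 or more probes changed the same way, among single-probe loci and among changes with time, with loci changed in opposite directions, the brightest and those with the most probes. Loci on chromosomes 8 and Y and 1 locus on X were counted and not named. The probes, lists and markers were chosen with earlier results of these data known, and the regions of overlapping loci after their values were seen. A fold given as at least a value sets the brighter group against each dim array's lowest signal well above background, or, where stated, the highest of these over the 8 arrays, chosen after the data were seen.

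Alternatives were scaling to the 75th percentile, normexp background correction with an offset of 50, the authors' table, quantile normalisation of the 6 arrays at 24 h, other filters, SAM over all 20 assignments of the arrays at a false discovery rate of 5%, a replicate block, a fit of all 8 arrays, array weights, locus means and leaving out each array. Probe sequences were not used here.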

Additional observations from a re-analysis of the deposited data

Results flagged for a closer look

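For 15 probes described above, the knockdown effect differed between 48 h and 24 h in the limma model of 4 groups (adjusted p under 0.05). With 1 array per treatment at 48 h, these values rest on single arrays. The effect at 48 h minus that at 24 h, on the log2 scale, was negative in 10 of them.

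Among loci with 2 changed probes, both F probes of chr4:128758375-128769050 had lower effects at 48 h, by -1.66 for A_19_P00326917 (adjusted p = 0.0273) and -1.41 for A_19_P00331034 (adjusted p = 0.0319). At chr18:48607527-48612752 the values were -1.06 for A_19_P00804817 (adjusted p = 0.0413) and -1.02 for A_19_P00812250 (adjusted p = 0.0314). At chr2:102038185-102091164 they were -1.38 for A_19_P00319027 and -1.87 for A_19_P00319028. In these 3 loci the fall at 24 h was larger at 48 h in both probes. At chr5:43016161-43018426 the rise at 24 h was larger at 48 h, by 0.80 for A_19_P00318599 and 1.24 for A_19_P00318600.

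Single probes moved in both ways. The rise of A_19_P00804679 at chr20:1335325-1349500 turned to a negative difference, a change of -1.47 (adjusted p = 0.0425). The value was 2.64 for A_19_P00326595, which did not pass at 24 h. Another 5 fitted values rest on readings not well above background and are no measured sizes. They were -2.11 for A_19_P00805563 and -2.49 for A_19_P00813557, with siRND3 at 48 h below background, and 1.95 for A_19_P00802100, with siControl at 48 h below it. They were -2.27 for A_19_P00807675 and 4.63 for A_19_P00320293, below background on both arrays at 48 h, and the latter also on the 3 siRND3 arrays at 24 h.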

How the results depend on the processing

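None of the 33 named probes changed at 24 h took the other sign in an alternative run. Of the 317 probes, 1 had a difference of the other sign after normexp and 1 with the authors' table, whether or not it passed there. The share of calls that were higher, 62.1%, was 45.0% without siRND3 replicate 2 and 49.0% without siControl replicate 3. Lower calls were then the more numerous. Over 330 alternative values of the 33 named probes changed at 24 h, 285 stayed past the threshold and 45 did not, 15 of these with the replicate block, and when 1 array was left out 119 of 198 stayed. RND3 passed in each alternative run.

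Without a filter on dim probes there were 184 changed probes, 173 changed loci, 132 probes whose effect differed between times and 78.3% of calls with the same sign at 48 h. SAM, the test the methods name, gave 489 probes, 466 loci and 20 loci with 2 or more probes. In siControl cells 155 probes changed with time after normexp and 185 with array weights. Scaling to the 75th percentile gave 1 sign in 65.1% of loci. The cause was not tested. Over all probes, 3350 were called, against 1651 with the block.

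With the replicate number as a block, 175 probes, 170 loci and 5 loci with 2 or more probes changed, 4 of the 5 among the 11. Same-numbered arrays at 24 h deviated together with correlations of 0.00, -0.01 and 0.13, so the numbers were not taken as pairs.

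Leaving out 1 array gave 104 to 258 changed probes, 98 to 249 loci and 4 to 9 loci with 2 or more probes, with the lowest counts without siControl replicate 3, joined by siControl replicate 1 for the last. Probes whose effect differed between times numbered 0 to 23, and changes with time 2 to 100. The share with the same sign at 48 h was 63.9% to 77.9%, and that of loci with 1 sign 53.9% to 64.0%.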
